A study of Rattus norvegicus with 15 samples.

Results

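Adiponectin and 3 genes of fatty acid handling were followed through the differentiation of rat marrow stromal cells: Adipoq (ENSRNOG00000001821), Fabp4 (ENSRNOG00000010805), Lpl (ENSRNOG00000012181) and Cd36 (ENSRNOG00000005906). They were chosen by identifier, as 4 of the 34480 rows of the deposited table of read counts. The names came with the choice of identifiers. The count table itself gives no symbols, and none of the 47357 genes in the RefSeq gene table (assembly GRCr8) carries a rat Ensembl identifier (0 matched), so the pairing of identifier and name could not be checked here. All 4 rows had at least 1 read, and 3 of them had enough reads to be tested. Adipoq passed the filter on low counts through the adipogenic libraries, and Cd36 did not pass it.

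Adiponectin is a hormone secreted by fat cells, and its gene is a late marker of the mature adipocyte. Fatty acids reach a fat cell when lipoprotein lipase, the enzyme encoded by Lpl, releases them from circulating triglyceride at the vessel wall. CD36 is a membrane protein that aids their entry, and FABP4 carries them inside the cell. In fat cells these genes are known targets of the nuclear receptor PPARγ. Lpl, Fabp4 and Cd36 are also expressed outside fat tissue, in macrophages among other cells.

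The cells were bone marrow mesenchymal stem cells of Sprague-Dawley rats, expanded over several passages and grown to confluence in growth medium. There were 5 groups of 3 libraries each: Adi_ASA (adipogenic differentiation medium with aspirin), Adi (adipogenic medium alone), Ost_ASA (osteogenic differentiation medium with aspirin), Ost (osteogenic medium alone) and untreated Control cells. Aspirin, or acetylsalicylic acid (ASA), inhibits the cyclooxygenases that make prostaglandins. Its dose, the time in each medium and the source of the replicates (separate animals or separate dishes) are not given in the sources, so a difference from Control may include time in culture, and p-values reflect how far these libraries scatter, which may be technical. Each library held 18373289 to 22817858 counted reads. Levels are given as CPM, the reads of a gene relative to the depth of its library, scaled by TMM factors of 0.911 to 1.07. Markers of the stromal, osteoblast, macrophage or endothelial type could not be looked up without symbols, and the make-up of the cultures was not tested. In such bulk samples, more cells of a type and more RNA per cell cannot be told apart.

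Promoter sequences are shown for Adipoq, which had the sharpest switch between media, and for Cd36, whose row stayed near 0 reads in every library. RefSeq gave a promoter for these 2 of the 4 genes, each 300 bases long, from 250 bases before the start to 50 after it on the gene's strand, in GRCr8 and not in the Rnor_6.0 build of the counts. The Adipoq promoter lies at chr11:91240120-91240419 on the minus strand and the Cd36 promoter at chr4:18246332-18246631 on the plus strand. The start used for Cd36 lies inside the listed span of the gene, chr4:18209088-18302142, so the upstream end of the gene was not searched. Capitals mark the matches of the motifs searched on both strands.
Adipoq: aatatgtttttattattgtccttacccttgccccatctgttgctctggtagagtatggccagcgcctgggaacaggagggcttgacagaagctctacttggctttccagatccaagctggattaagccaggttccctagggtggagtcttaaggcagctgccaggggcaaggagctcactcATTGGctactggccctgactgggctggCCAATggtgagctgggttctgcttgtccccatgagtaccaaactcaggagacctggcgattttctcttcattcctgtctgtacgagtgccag
Cd36: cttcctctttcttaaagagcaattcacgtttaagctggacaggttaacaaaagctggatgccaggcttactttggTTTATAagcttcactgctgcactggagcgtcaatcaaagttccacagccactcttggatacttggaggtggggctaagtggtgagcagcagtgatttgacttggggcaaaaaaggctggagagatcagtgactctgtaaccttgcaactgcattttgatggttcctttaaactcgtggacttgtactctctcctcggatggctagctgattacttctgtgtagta

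The Adipoq window held the CCAAT box (CCAAT) 2 times, at base 182 on the opposite strand and at base 209 on the gene's strand, counted from the first base shown. A CCAAT box was found in 37.5% of the 33469 rat promoters of the same length. The Cd36 window held the TATA box letters (TATAAA) once, at base 76 on the opposite strand, as did 14.2% of all promoters on either strand. The direct repeat bound by PPARγ with its partner RXR (AGGTCANAGGTCA), the nuclear receptor half-site it contains (AGGTCA) and a C/EBP site (TTGCNNAA) had 0 exact matches in both windows. These letters occurred in 0.0538%, 16.2% and 10.6% of all promoters, for the direct repeat, the half-site and the C/EBP site. A match describes letters in a window and does not show that a factor binds there.

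Adipoq, the secreted hormone, was abundant in adipogenic medium and hardly at all elsewhere. It had 430, 416 and 356 CPM in Adi_ASA replicates 1 to 3 and 288, 301 and 425 CPM in Adi replicates 1 to 3. In osteogenic medium it had 1, 3 and 4 reads in the Ost_ASA libraries and 0 reads in all Ost libraries. In Control it had 0, 8 and 10 reads. The adipogenic libraries lay far above all others, while the Adi_ASA and Adi libraries overlapped.

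Fabp4, the intracellular fatty acid carrier, rose in both media, and more in the adipogenic one. It had 1154, 1149 and 1056 CPM in Adi_ASA, and 563, 601 and 781 CPM in Adi. It had 412, 460 and 335 CPM in Ost_ASA, and 319, 321 and 267 CPM in Ost. Control libraries held 10.4, 10.6 and 7.98 CPM. By group mean, Fabp4 therefore ranked Adi_ASA, Adi, Ost_ASA, Ost and Control from high to low. However, the step between Ost_ASA and Ost did not pass the test given further on.

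Lpl, the lipase that releases fatty acids from triglyceride, followed another order and was already read at a high level in untreated cells. It had 581, 584 and 599 CPM in Adi_ASA, and 332, 337 and 386 CPM in Adi. It had 69.8, 60.3 and 58.0 CPM in Ost_ASA, and 64.3, 64.4 and 64.5 CPM in Ost. Control libraries lay between the media, at 235, 280 and 242 CPM. By group mean, Lpl ranked Adi_ASA, Adi, Control, Ost and Ost_ASA from high to low. The Ost libraries lay inside the range of the Ost_ASA libraries.

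The Cd36 row was almost empty in every group. It had 1, 1 and 4 reads in Adi_ASA, 1, 1 and 2 in Adi, 7, 1 and 4 in Ost_ASA, 1, 0 and 6 in Ost, and 0 in each Control library. A count of 0 over the Control libraries allows a level of up to 0.0451 CPM (3 reads over the group, counting error only). Without a filter on low counts, Cd36 passed the test in Ost against Control, on 7 reads against 0 (edgeR adjusted p = 0.0289). In that comparison 5523 of the 23518 genes were called higher and 5554 lower, so such a call was common. Of the 7 Cd36 reads, 6 were in Ost replicate 3. Cd36 passed in none of the other 6 comparisons run, which did not include Ost_ASA against Control. The RefSeq table lists 3 Cd36 entries side by side on chromosome 4 of GRCr8, namely Cd36, Cd36l1 and Cd36-ps1. How reads that match several copies were counted is not stated in the labels or notes, so the level of Cd36 is uncertain.

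**Figure D1:**
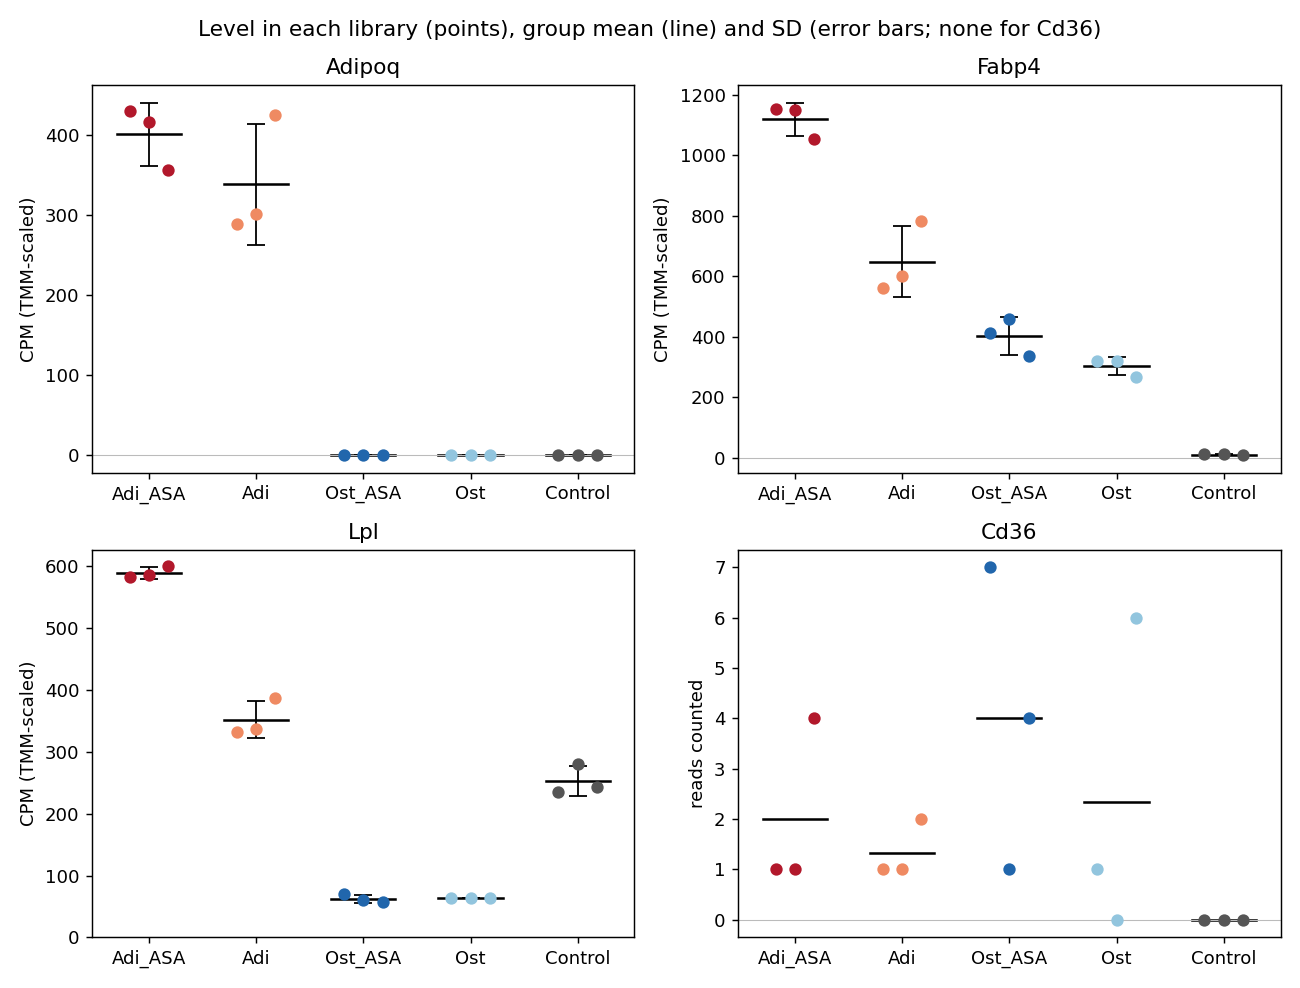
Level of each gene in every library (points, replicates 1 to 3 from left to right) by group, in TMM-scaled CPM for Adipoq, Fabp4 and Lpl and in reads for Cd36; lines are group means and error bars are SD of 3 libraries. Adipoq is near 0 outside the 2 adipogenic groups, Fabp4 is above Control in all 4 media groups, Lpl is lowest in both osteogenic groups, and no library has more than 7 Cd36 reads.

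The Adi group was set against Control to see how these genes differ between adipogenic medium and untreated cells. That difference may include time in culture. Adipoq, Fabp4 and Lpl were all higher in Adi, in a comparison where 24.5% of the 15543 genes tested were higher and 48.9% changed in either direction (edgeR quasi-likelihood test, adjusted p under 0.05). Adipoq averaged 338 ± 75.4 CPM in Adi and 0.284 ± 0.251 CPM in Control (SD, n = 3 each). Its log2 fold change was 10.25 (SE 0.37, edgeR adjusted p = 2.51e-08). This ranked 3 among the highest of the genes tested, which Adipoq joined through the adipogenic libraries. That rank and the p-value are therefore no independent support. The size rests on 18 Control reads: the ratio of summed reads was 1253-fold, with a 95% counting interval of 793 to 2115, and the log2 fold change was 9.61 when Control replicate 1, with 0 reads, was left out and 10.86 when Control replicate 3 was.

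Fabp4 averaged 648 ± 117 CPM in Adi and 9.66 ± 1.46 CPM in Control (SD, n = 3 each), a 67.0-fold difference (log2 6.07, SE 0.19, edgeR adjusted p = 4.62e-11). It ranked 49 among the highest log2 fold changes. Lpl rose by much less, to 351 ± 29.8 CPM in Adi against 252 ± 24.2 CPM in Control, which is 1.39-fold (log2 0.48, SE 0.07, edgeR adjusted p = 1.39e-05) and rank 2370. Of the 3 genes, the hormone gene thus differed most from Control and the lipase gene least.

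With aspirin in the adipogenic medium, the 3 genes were still higher than in Control, where 22.5% of the genes tested were higher. The log2 fold changes of Adi_ASA against Control were 10.50 for Adipoq (SE 0.37), 6.85 for Fabp4 (SE 0.19) and 1.22 for Lpl (SE 0.07), with edgeR adjusted p of 2.52e-08, 2.05e-11 and 2.15e-11. Leaving out Control replicate 1 gave 9.86 for Adipoq, and leaving out Control replicate 3 gave 11.10. Adipoq passed the filter on low counts through the adipogenic libraries, so its p-value against Control is no independent support. The comparisons of Adi and Adi_ASA with Control share the Control libraries.

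In osteogenic medium, set against the same Control libraries, Fabp4 was higher, Lpl was lower and no change of Adipoq was called. Fabp4 rose to 302 ± 30.6 CPM in Ost against 9.66 ± 1.46 CPM in Control (SD, n = 3 each), or 31.2-fold (log2 4.96, SE 0.18, edgeR adjusted p = 4.33e-11), while 34.2% of the genes tested were higher. Lpl fell to 64.4 ± 0.105 CPM in Ost against 252 ± 24.2 CPM in Control (log2 fold change -1.97, SE 0.08, edgeR adjusted p = 1.58e-15), which is 3.92-fold lower, while 34.8% were lower. The Ost libraries held 1495, 1230 and 1453 Lpl reads, and their scaled values lie closer together than the counting error of such read numbers, so the SD understates the error of that mean.

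Adipoq had 0 reads in Ost against 18 in Control, or 5.86-fold lower with the Ost reads set to a floor of 3. With counting error in both groups the ratio of Ost to Control could be up to 0.233 (exact 95% interval). This difference missed the threshold in edgeR (adjusted p = 0.0744). It passed with DESeq2 (adjusted p = 0.000146) and, in edgeR, without Control replicate 1 (adjusted p = 0.0204). All of these values rest on 18 reads against 0, for a gene that entered the test through the adipogenic libraries and falls under the filter when Ost and Control are fitted alone, so no change of Adipoq in Ost is called here.

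Set directly against each other, the media differed for each of the 3 genes, all higher in Adi, as were 33% of the genes tested. Adipoq had 18572 reads over the Adi libraries and 0 over the Ost libraries (edgeR adjusted p = 7.42e-09). It was 7339-fold higher in Adi with the Ost reads set to a floor of 3. The exact 95% counting interval of the ratio, which allows for counting error in both groups, starts at 5968-fold. It does not cover the spread between libraries. The fitted change of Adipoq ranked 1 of 15543, though a fitted size against 0 reads depends on the prior count. Adipoq also passed the filter through the adipogenic libraries, so that rank and its p-value are no independent support. Lpl was 5.46-fold higher in Adi than in Ost (log2 2.45, SE 0.08, edgeR adjusted p = 5.62e-17), and Fabp4 was 2.15-fold higher (log2 1.10, SE 0.14, edgeR adjusted p = 1.93e-05). Fabp4 thus differed more from Control, and Lpl differed more between the media.

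**Figure D2:**
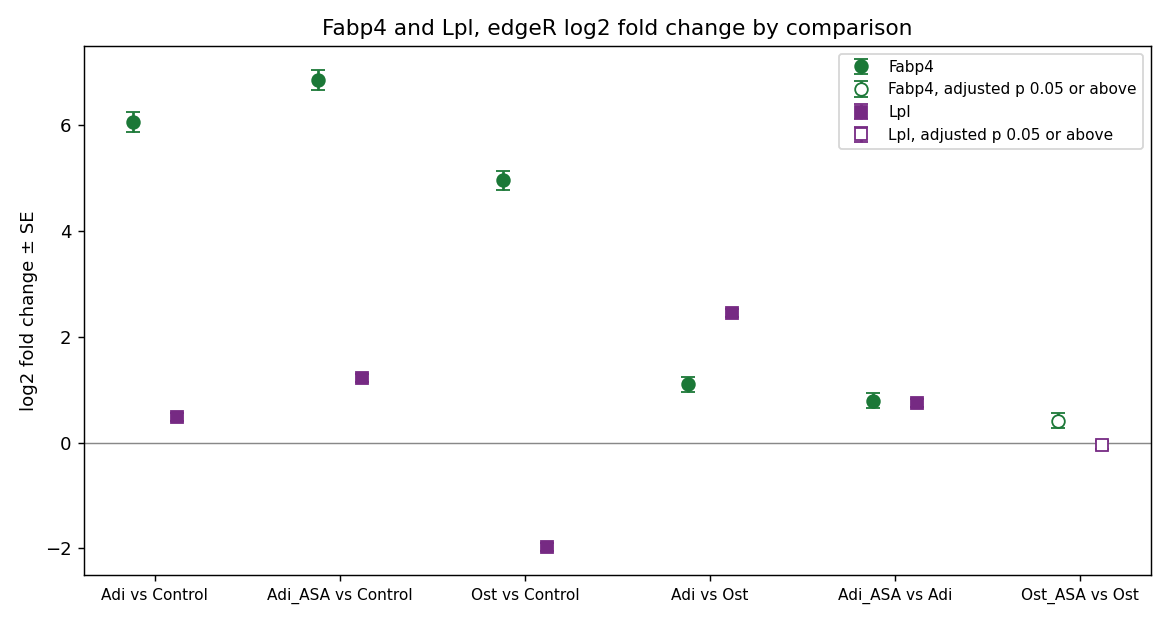
edgeR log2 fold change with its SE for Fabp4 (circles) and Lpl (squares) in 6 comparisons; open symbols have an adjusted p of 0.05 or above, and the SE of Lpl is hidden by the symbols. Fabp4 is 6.07 and 4.96 above Control in Adi and Ost, Lpl is 0.48 above and 1.97 below it, and they lie at 0.79 and 0.74 for Adi_ASA against Adi.

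Aspirin was added to adipogenic medium to see how it acts on adipogenic induction. Fabp4 and Lpl rose further with aspirin, in a comparison where 2.49% of the genes tested were higher and 4.34% changed at all. Fabp4 averaged 1120 ± 55.4 CPM in Adi_ASA and 648 ± 117 CPM in Adi (SD, n = 3 each), a 1.73-fold difference (log2 0.79, SE 0.14, edgeR adjusted p = 0.00875). Lpl averaged 588 ± 9.43 CPM in Adi_ASA and 351 ± 29.8 CPM in Adi, a 1.67-fold difference (log2 0.74, SE 0.07, edgeR adjusted p = 3.73e-06). For both genes every Adi_ASA library lay above every Adi library, a separation in the higher direction found for 12.1% of all genes tested. Their log2 fold changes ranked 404 and 463 of 15543, and the median of all genes was 0.0017.

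Adipoq averaged 401 ± 39.5 CPM in Adi_ASA and 338 ± 75.4 CPM in Adi (SD, n = 3 each), and the groups overlapped. The log2 difference of 0.24 (SE 0.19, approximate 95% interval -0.12 to 0.61) missed the threshold (edgeR adjusted p = 0.582). That interval includes 0, so a small rise, no change or a slight fall of Adipoq cannot be told apart. Adi replicate 3 held the highest level of Adipoq, Fabp4 and Lpl among the Adi libraries, at 126%, 121% and 110% of the group means. Without it the log2 differences with aspirin were 0.44 for Adipoq (edgeR adjusted p = 0.251), 0.95 for Fabp4 (adjusted p = 0.000966) and 0.82 for Lpl (adjusted p = 2.75e-06). These were the largest values with 1 library left out. The ranges were 0.14 to 0.44 for Adipoq, 0.70 to 0.95 for Fabp4 and 0.70 to 0.82 for Lpl.

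**Figure D3:**
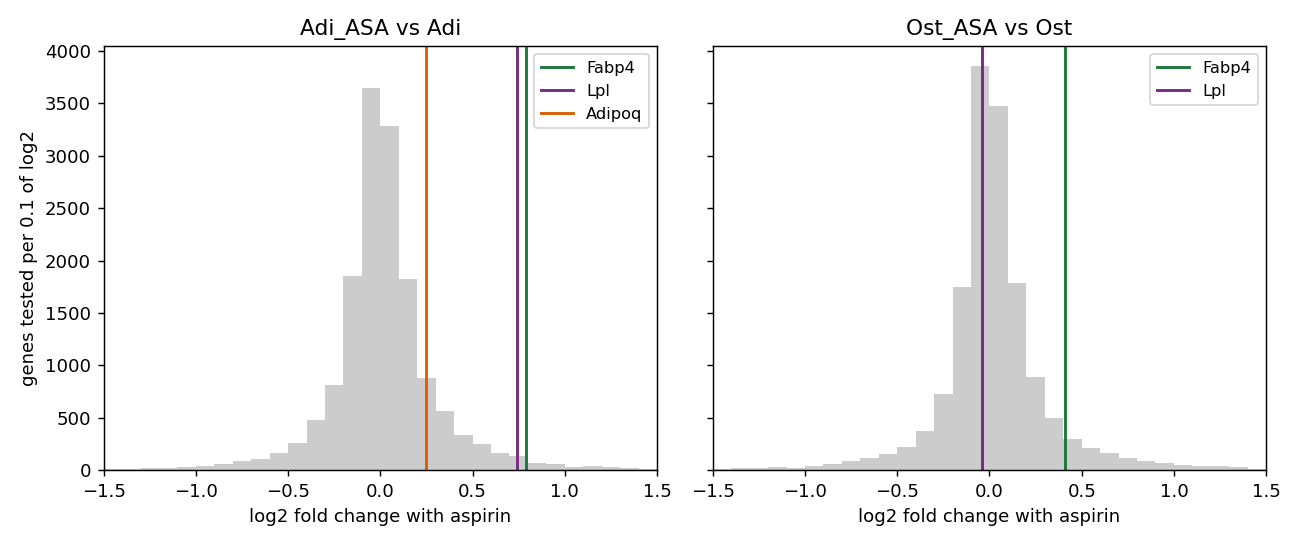
Number of genes tested (bars, 0.1 of log2 wide) by log2 fold change with aspirin in adipogenic medium (left) and osteogenic medium (right), with lines for single genes; Adipoq is left out on the right, where it had 8 reads against 0. Fabp4 at 0.79 and Lpl at 0.74 lie in the upper tail on the left, while on the right Lpl, at -0.04, lies among most genes.

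In osteogenic medium no tested gene of the set passed the test with aspirin, where 3.63% of all genes did. Fabp4 averaged 402 ± 62.8 CPM in Ost_ASA and 302 ± 30.6 CPM in Ost (SD, n = 3 each; log2 0.41, SE 0.14, edgeR adjusted p = 0.170, unadjusted 0.0137). Every Ost_ASA library lay above every Ost library for Fabp4, as for 10.5% of genes in that direction. Lpl averaged 62.7 ± 6.26 CPM in Ost_ASA and 64.4 ± 0.105 CPM in Ost, with a log2 difference of -0.04 (approximate 95% interval -0.19 to 0.11, edgeR adjusted p = 0.885). Adipoq had 8 reads over the Ost_ASA libraries and 0 over the Ost libraries, which did not pass (edgeR adjusted p = 0.570). The exact 95% counting interval of that ratio starts at 1.66-fold and covers counting error only.

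The effect of aspirin in the 2 media was then compared as an interaction, which passed for 2.83% of the genes tested. For Lpl the effect was 0.78 higher on the log2 scale in adipogenic than in osteogenic medium (SE 0.11, edgeR adjusted p = 0.000224). For Fabp4 the difference was 0.38 (SE 0.20, approximate 95% interval -0.02 to 0.77, edgeR adjusted p = 0.460), so the data do not show that its response differs between media. The Adipoq interaction rests on 0 reads in Ost and did not pass (edgeR adjusted p = 0.625).

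Ratios of reads within 1 library do not depend on how libraries are scaled, and were used to see how the genes vary among themselves. A ratio between genes also depends on their lengths, so only its change from group to group is read here. Fabp4 reads per Lpl read were 1.91 ± 0.124 in Adi_ASA and 1.84 ± 0.171 in Adi (SD, n = 3 each), with overlapping libraries. They were 6.44 ± 1.04 in Ost_ASA and 4.70 ± 0.480 in Ost, and 0.0383 ± 0.00565 in Control. The ratio was thus higher in both osteogenic groups than in the adipogenic groups and lowest in Control, in values that were not tested.

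Adipoq reads per Fabp4 read were 0.372, 0.362 and 0.337 in Adi_ASA and 0.512, 0.501 and 0.544 in Adi. Adipoq reads per Lpl read were 0.740, 0.712 and 0.594 in Adi_ASA and 0.869, 0.893 and 1.10 in Adi. These lower ratios in Adi_ASA go with the higher Fabp4 and Lpl levels given above and are no separate finding on Adipoq. Adipoq itself averaged 401 CPM in Adi_ASA and 338 CPM in Adi, a difference that did not pass the test. How many other gene pairs have such a shift was not computed. These ratios were chosen after the levels were known and were not tested.

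**Figure D4:**
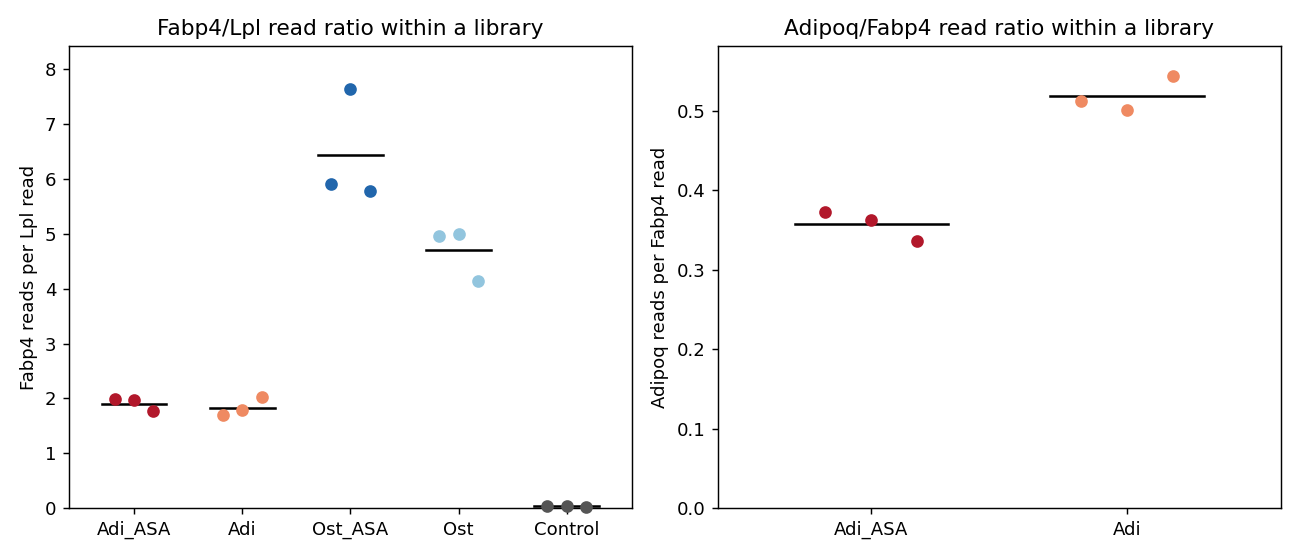
Reads of one gene per read of another within each library (points, replicates 1 to 3 from left to right) with group means (lines): Fabp4 per Lpl in all 5 groups (left) and Adipoq per Fabp4 in the adipogenic groups (right). Fabp4 per Lpl is similar in Adi_ASA and Adi and higher in both osteogenic groups, and Adipoq per Fabp4 lies at 0.337 to 0.372 in Adi_ASA, below 0.501 to 0.544 in Adi.

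Across the 15 libraries, log2 CPM of Adipoq went with that of Lpl (Pearson r = 0.85) and less with that of Fabp4 (r = 0.55), and Fabp4 with Lpl had r = 0.08. The libraries form 5 groups, so these values mostly compare group means. Among all other tested genes with an Ensembl identifier, the highest mean correlation with Adipoq, Fabp4 and Lpl was that of ENSRNOG00000010633 (mean r = 0.81, and 0.98 with Adipoq). It averaged 694 ± 57.5 CPM in Adi_ASA, 452 ± 69.3 in Adi, 23.1 ± 0.486 in Ost_ASA, 19.6 ± 1.25 in Ost and 16.4 ± 0.604 in Control (SD, n = 3 each). ENSRNOG00000006119 followed (mean r = 0.81), at 2.95 ± 0.129 CPM in Adi_ASA and 1.64 ± 0.295 CPM in Adi, with 0 reads in Ost and Control. The most opposite patterns were those of ENSRNOG00000009620 and ENSRNOG00000057221 (mean r = -0.81 and -0.80). Both were lowest in the adipogenic groups. ENSRNOG00000009620 averaged 21.5 ± 1.25 CPM in Adi_ASA and 22.3 ± 0.894 CPM in Adi, against 38.5 ± 1.78 CPM in Control. For ENSRNOG00000057221 the means were 4.50 ± 0.198 CPM in Adi_ASA and 5.25 ± 0.750 CPM in Adi, against 24.5 ± 1.99 CPM in Control.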

How the data were processed

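The deposited table holds unnormalised read counts per gene for 15 libraries. The build Rnor_6.0 and the tools HISAT2 2.0.4, HTSeq 0.9.1 and DESeq 1.18.0 are named in the submitters' processing notes, without settings, strand or annotation. The tests used edgeR 4.0.16 (R 4.3.3) with filterByExpr (15543 genes kept), TMM scaling and 1 robust quasi-likelihood model of the 5 group means. P-values were adjusted by Benjamini-Hochberg over the 15543 genes, with 0.05 as the threshold. The SE is the log2 fold change divided by the square root of F, and approximate intervals are built on it. The model was tested on simulated data. Alternatives were RLE factors, no filter, DESeq2 1.42.0, a replicate block, only the groups compared, and each library left out.

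The 4 genes and all lists were chosen with earlier results of these data known. Lists of pathway genes and cell markers by symbol could not be matched and were not run. Other genes were named by their mean correlation with the members over log2 CPM (prior count 2), the 2 highest and 2 lowest; Cd36, under the filter, did not enter. Replicate pairs differed by more than sampling error (chi-square divided by its degrees of freedom, 5.41 to 13.5), so each library counts once. Labels do not say whether replicates are separate animals.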

Additional observations from a re-analysis of the deposited data

Results flagged for a closer look

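The effect of aspirin on Lpl differed between the media by the test of the interaction itself: it was 0.78 higher on the log2 scale in adipogenic than in osteogenic medium (SE 0.11, edgeR adjusted p = 0.000224). Lpl was 1.67-fold higher in Adi_ASA than in Adi. It was higher in 3 of 3 Adi_ASA libraries than in every Adi library, as were 12.1% of the genes tested. The log2 difference of Lpl between Ost_ASA and Ost was -0.04. Over the alternatives run, the difference between the media ranged from 0.73 to 0.87 (adjusted p 1.52e-09 to 0.00115).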

How the results depend on the processing

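Over 247 refits of 21 results on Adipoq, Fabp4 and Lpl, 244 kept their direction and their side of the threshold. For Adipoq in Ost against Control, the log2 fold change of -5.52 became -5.00 with DESeq2, which called it, and ranged from -6.14 to -4.91 with 1 library left out. For Lpl in Ost_ASA against Ost it ranged from -0.12 to 0.014 with 1 library left out. The weakest call of Fabp4 in Adi_ASA against Adi had an adjusted p of 0.0490 when only these groups were fitted, with fewer libraries. With 1 library left out, the number of genes called was 284 to 529 in Adi_ASA against Adi (675 with all), 335 to 536 in Ost_ASA against Ost (564) and 288 to 427 for the interaction (440), with fewer samples in each fit. Mean Lpl was 568 CPM in Adi_ASA by library totals only, and 66.5 CPM by totals and 64.3 CPM by RLE factors in Ost. Libraries of the same replicate number showed little shared deviation (correlation of deviations -0.07 to 0.04 over 30 pairs), which cannot exclude a shared animal or batch. The replicate block changed no call on the members, with log2 0.78 for Fabp4 and 0.74 for Lpl in Adi_ASA against Adi. Adipoq gave no value when only Ost and Control or only Ost_ASA and Ost were fitted, being under the filter there. Depth limits Cd36 and the osteogenic Adipoq values.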
